A study of Arabidopsis thaliana with 12 samples.

Results

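The genes around the centromeres of chromosomes 2 and 4 of *Arabidopsis thaliana* were followed through 12 RNA-seq libraries. They were chosen by identifier alone, as the rows numbered AT2G05500 to AT2G14999 and AT4G05500 to AT4G08999. Identifiers numbered below 10000 were taken only where the last digit was 0, and AT2G07660 to AT2G07840, the nuclear copy of mitochondrial DNA, were left out. The rule gave 1222 of the 35651 genes of the count tables, 940 on chromosome 2 and 282 on chromosome 4. By RefSeq, 661 are pseudogenes, 342 are protein-coding genes and 192 are long noncoding RNAs (lncRNAs).

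Each library came from a single 14-day-old seedling, with 3 libraries for each of 4 genotypes in the Col-0 background: the quadruple mutant h1.1h1.2cdca7acdca7b, which carries mutations in the main linker histone H1 genes and in both class I CDCA7 genes, the double mutants h1.1h1.2 and cdca7acdca7b, and Col0, the wild type. The cdca7 alleles were made with CRISPR-Cas9. The genotype in the sample title matches that in the name of the count table for the 3 quadruple libraries but not for the other 9, so each set is named here by its title first and its table name second. The "h1/cdca7" set has titles of h1.1h1.2 and tables named cdca7acdca7b, the "cdca7/col" set has titles of cdca7acdca7b and tables named col, and the "Col-0/h1" set has titles of Col0 and tables named h1. All 6 pairs of sets were compared, so that every comparison can be read under either naming. The 4 targeted genes had between 8 and 71 counts in all 12 libraries together, which bear out neither naming fully and are too few to decide. *CDCA7a* had 0, 0 and 0 counts in the quadruple set, 0, 0 and 5 in the h1/cdca7 set, 3, 2 and 8 in the cdca7/col set and 4, 2 and 10 in the Col-0/h1 set, while *H1.1* had 4, 6 and 5, 21, 1 and 0, 0, 0 and 0, and 3, 2 and 10 in these sets. In the same order *H1.2* had 7, 0 and 10, 16, 3 and 9, 0, 1 and 2, and 1, 15 and 7. *CDCA7b* had 1 count in cdca7/col library 2, 7 in Col-0/h1 library 2 and 0 in all others. Nothing in the labels says that the seedlings of a set were grown apart, so the p-values measure only the spread between these libraries.

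In *Arabidopsis*, centromeres are long arrays of satellite repeats, and the pericentromeric heterochromatin on either side holds mostly transposons, their remnants and scattered genes. This chromatin is kept compact and largely silent by histone H3K9 methylation, linker histone H1 and DNA methylation. MET1 maintains methylation at CG sites after replication, the remodeller DDM1 opens nucleosomes for it, and CDCA7 proteins are partners of that remodeller. Loss of CG methylation is known to release transcription of some silenced elements. The study asked how CDCA7 and H1 act on CG methylation, and the comparisons below ask what the RNA of the genes nearest to these centromeres did in the same genotypes.

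The label was checked against TAIR10.1 positions. The protein-coding genes and pseudogenes ran from 2015624 to 6480183 on chromosome 2 (4.46 Mb) and from 2790193 to 5770496 on chromosome 4 (2.98 Mb). These stretches hold the assembly gaps of 1000 bases left at the centromeres, at 3607930 on chromosome 2 and at 3956022 on chromosome 4, from which distances are given below. The chromosome 4 stretch holds another gap of 1000 bases, at 3053302, and the gap nearer the middle of the stretch was used. A total of 1013 members lie inside these stretches, 12 have no RefSeq position, and 197, nearly all lncRNAs with newly assigned numbers, lie on the chromosome arms. For these 197 the label goes against their position, and they are called arm members.

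The 250 bases before the annotated start are shown for 6 of the members called below, between sets or in the interaction test. AT2G12550 was called by edgeR only in the interaction test, and *PSBX*, also called, is not shown. Every CG dinucleotide, the context that MET1 maintains, is in capitals. The windows run 5′ to 3′ on the gene's strand and come from the TAIR10.1 genome and RefSeq gene starts. AT2G10250 (window chr2:3920686-3920935), AT2G10620 (chr2:4156970-4157219) and AT2G11640 (chr2:4669747-4669996) are pseudogenes with most of their counts in the h1/cdca7 set. AT2G13430 (chr2:5589802-5590051), AT4G08990 (chr4:5764531-5764780) and AT2G12550 (chr2:5114554-5114803) are protein-coding genes that were high in the quadruple and Col-0/h1 sets. All 6 lie on the plus strand.
AT2G10250: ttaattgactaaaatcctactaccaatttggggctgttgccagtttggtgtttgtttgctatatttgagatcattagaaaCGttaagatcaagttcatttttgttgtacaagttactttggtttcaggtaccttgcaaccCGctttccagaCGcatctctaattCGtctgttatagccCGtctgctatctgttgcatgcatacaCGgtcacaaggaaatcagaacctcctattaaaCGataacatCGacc
AT2G10620: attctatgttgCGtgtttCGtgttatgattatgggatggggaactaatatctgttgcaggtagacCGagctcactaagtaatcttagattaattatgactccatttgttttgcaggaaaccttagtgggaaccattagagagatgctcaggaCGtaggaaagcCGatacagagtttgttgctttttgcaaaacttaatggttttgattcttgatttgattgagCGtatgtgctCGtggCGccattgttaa
AT2G11640: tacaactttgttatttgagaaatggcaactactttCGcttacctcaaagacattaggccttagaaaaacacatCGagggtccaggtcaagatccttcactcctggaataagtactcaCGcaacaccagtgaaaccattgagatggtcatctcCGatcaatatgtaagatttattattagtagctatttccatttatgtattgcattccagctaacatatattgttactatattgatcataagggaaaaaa
AT2G13430: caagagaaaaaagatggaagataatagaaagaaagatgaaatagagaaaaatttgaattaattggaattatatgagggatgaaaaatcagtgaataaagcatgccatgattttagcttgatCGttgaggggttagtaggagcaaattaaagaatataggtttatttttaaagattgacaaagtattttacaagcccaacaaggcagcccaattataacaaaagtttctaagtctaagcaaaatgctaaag
AT4G08990: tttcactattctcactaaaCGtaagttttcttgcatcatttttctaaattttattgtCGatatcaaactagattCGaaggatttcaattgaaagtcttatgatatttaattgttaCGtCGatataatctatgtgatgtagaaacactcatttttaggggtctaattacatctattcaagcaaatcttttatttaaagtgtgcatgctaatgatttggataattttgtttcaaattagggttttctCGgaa
AT2G12550: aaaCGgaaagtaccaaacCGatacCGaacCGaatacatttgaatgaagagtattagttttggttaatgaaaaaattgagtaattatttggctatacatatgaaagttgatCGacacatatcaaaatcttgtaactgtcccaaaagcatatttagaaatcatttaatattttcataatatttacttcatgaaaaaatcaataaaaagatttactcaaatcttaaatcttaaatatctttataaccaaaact

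These windows held 8, 8, 4, 1, 6 and 5 CG sites in the order printed. The median was 5 CG sites over the windows of 37880 nuclear genes, 6 over the 661 pseudogenes inside the stretches and 4 over the 342 protein-coding genes there. AT2G13430, with 1 CG site before its start, had 41.6 CG sites per kb within the gene, against a median of 25.3 per kb over all nuclear genes. AT2G10250, AT2G10620 and AT2G11640 had 21.8, 18.1 and 13.7 CG sites per kb. The letters TATAAA, searched on both strands, were present in the window of AT2G12550 and not in the other 5 windows, and in 44.7% of the windows of all nuclear genes.

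Most of these genes had no reads. Of the 1222 members, 846 had 0 counts in all 12 libraries and 376 had at least 1 count (30.8%), against 64.9% of all genes. At least 1 count was seen for 192 of 342 protein-coding genes (56.1%), 112 of 661 pseudogenes (16.9%) and 62 of 192 lncRNAs (32.3%). Of the 376, 209 had fewer than 10 counts in total. Counts this low limit what can be tested, and the filter on low counts kept 52 members (28 protein-coding genes, 14 lncRNAs, 9 pseudogenes and 1 other noncoding RNA), 4.26% of the members, against 12.5% of all genes. No statement below about tested members covers the other 1170.

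The counts on genes were few, and their strand is uncertain. Libraries held 25236235 to 43462077 reads, of which 97.6 to 98.4% were assigned by HTSeq to no gene feature, and 450869 to 833911 reads were counted on genes. Members took 1.80 to 2.48% of the gene counts. The libraries were made with a kit that keeps the strand of the RNA, and the strand setting of the counting is not stated in the sources used here. A read on the strand opposite to a gene counts as no feature under a stranded setting, so the uncounted reads need not lie outside genes. In 10 of the 12 libraries, all but h1/cdca7 libraries 1 and 3, *ACT2* (actin) had at most 6 counts and *UBQ10* (polyubiquitin) at most 7, although both are abundant transcripts in seedlings. The counts may therefore cover the strand opposite to the genes, which was not tested. Every count above and below, those of the targeted genes included, is a count on an identifier that need not measure that gene's own transcript. Photosynthesis genes, which are abundant in green seedlings, took 0.0586 to 0.110% of gene counts in 10 libraries, 2.65% in h1/cdca7 library 1 and 0.495% in h1/cdca7 library 3. These h1/cdca7 libraries stand apart from the 10 others. With the strand of the counts uncertain, these shares need not measure the marker transcripts of the labelled tissue. Results that rest on the h1/cdca7 set are therefore also given without both of these libraries, an alternative added after the values were seen, in which the remaining h1/cdca7 library is assumed to vary like the others. In libraries of whole seedlings, fewer cells of a type and less RNA per cell cannot be told apart.

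AT2G11240, a pseudogene 0.87 Mb from the chromosome 2 gap, took 51.7 to 80.8% of all member counts in each library. Its counts were 5951, 6815 and 7135 in the quadruple set, 8019, 9046 and 7219 in the h1/cdca7 set, 12872, 10320 and 10398 in the cdca7/col set, and 11350, 15214 and 10488 in the Col-0/h1 set. Scaled to library size (CPM, with the library sizes scaled by TMM), it averaged 13447 ± 1267 in the quadruple set, 13744 ± 2863 in the h1/cdca7 set, 18171 ± 3429 in the cdca7/col set and 16662 ± 733 in the Col-0/h1 set (SD, n = 3 each). The sets overlapped in every pair but quadruple and Col-0/h1, and in no pair did the gene pass the test, with log2 differences between -0.43 and 0.13.

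The sums of the other members by class are plotted by library. The 342 protein-coding genes summed to 3370 ± 103 CPM in the quadruple set, 3798 ± 956 in the h1/cdca7 set, 3266 ± 293 in the cdca7/col set and 3386 ± 62.2 in the Col-0/h1 set, with h1/cdca7 library 1, the library highest in photosynthesis genes, alone at 4901 CPM. The 660 pseudogenes other than AT2G11240 summed to 1391, 1525 and 1224 CPM in the h1/cdca7 libraries, above all 9 others, which ran from 824 to 1003 CPM. The number of these pseudogenes with a count was 25, 20 and 33 in the quadruple set, 54, 42 and 53 in the h1/cdca7 set, 21, 17 and 20 in the cdca7/col set, and 29, 26 and 24 in the Col-0/h1 set. Over all genes of the tables, 48.5 and 38.4% had a count in h1/cdca7 libraries 1 and 3, which had 54 and 53 detected pseudogenes, and 27.5 to 35.3% in the 10 others. Among those 10, h1/cdca7 library 2 had a count for 29.3% of all genes and for 42 of these pseudogenes. Whether the detection of pseudogenes followed that of all genes was not tested. These sums are a description and were not tested.

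**Figure D1:**
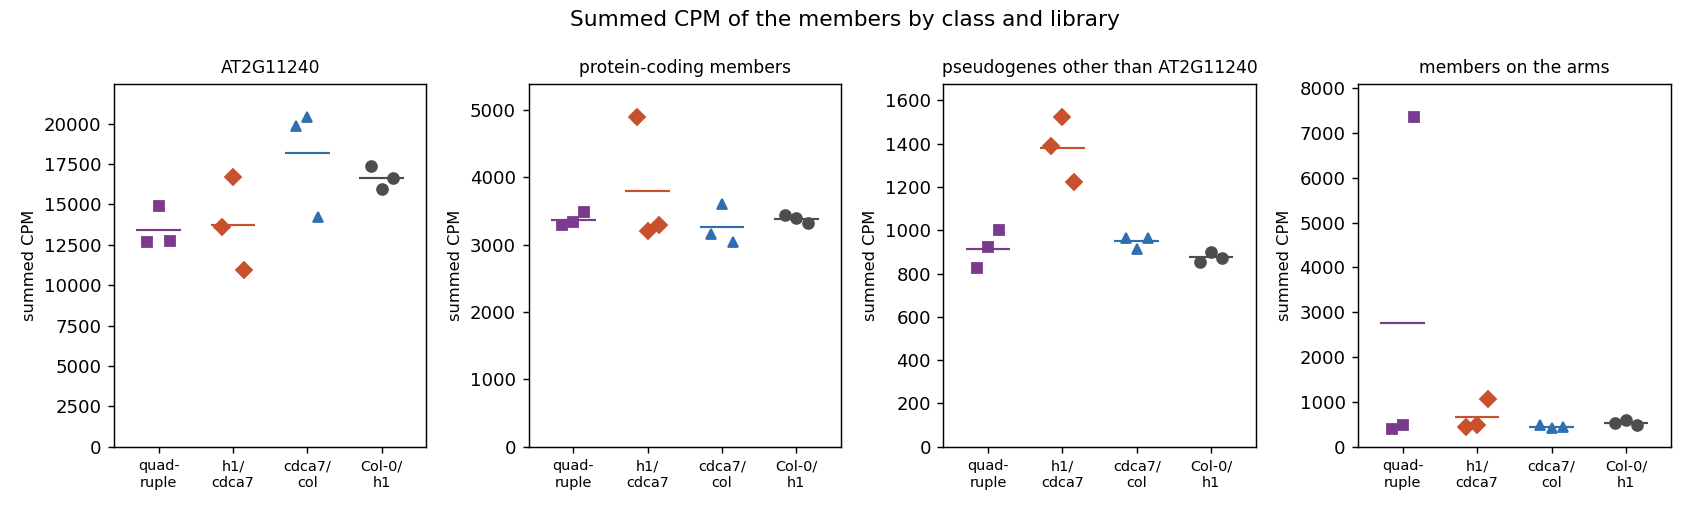
Summed CPM (y axis) of AT2G11240, of the protein-coding members, of the pseudogenes other than AT2G11240 and of the arm members, in the quadruple, h1/cdca7, cdca7/col and Col-0/h1 sets (x axis); each point is a library and each line the mean of 3. The pseudogene sums of the 3 h1/cdca7 libraries lie between 1224 and 1525 CPM, above the 9 other libraries, and a single quadruple library stands at 7363 CPM among the arm members.

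The pseudogenes AT2G10250, AT2G10620 and AT2G11640, near the chromosome 2 gap, were called higher in the h1/cdca7 set than in the cdca7/col and Col-0/h1 sets. In the h1/cdca7 set against the cdca7/col set, which by table names compares cdca7acdca7b with col, 4 of the 52 tested members were called higher (7.69%) and 0 lower, where 2.02% and 0.157% of all tested genes were called. AT2G10620 and AT2G11640 entered the test through the h1/cdca7 set alone, so the filter had already chosen them for a difference, and without them 2 of 50 tested members were called higher. A call needed an adjusted p under 0.05 over all 4461 tested genes, from edgeR's quasi-likelihood test with Benjamini-Hochberg adjustment, together with a log2 difference of 1 or more in size. The 4 members were AT2G10250, AT2G10620, AT2G11640 and *PSBX*. AT2G10250 and *PSBX* had 4 libraries each above the cut of the filter, in 2 and 3 sets, with h1/cdca7 libraries among them. Their place in the test therefore also rested on the h1/cdca7 set, and the 2 of 50 are not free of that choice. Without an adjustment, 9 members were higher and 3 lower at p under 0.05 (10.7% and 5.09% of all tested genes), and DESeq2 called 3 higher and 0 lower. The median log2 difference was 0.09 over the tested members and 0.05 over all tested genes.

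AT2G10250 (chr2:3920936-3925848, 0.315 Mb from the gap) had 4, 12 and 1 counts in the quadruple set, 15, 88 and 40 in the h1/cdca7 set, 0, 0 and 0 in the cdca7/col set, and 0, 7 and 0 in the Col-0/h1 set. The h1/cdca7 libraries were above every library of the cdca7/col and Col-0/h1 sets and overlapped the quadruple set. Against the cdca7/col set, which was at 0, the h1/cdca7 set was at least 50.2-fold higher (3 counts over the set of 3 libraries in place of 0; edgeR adjusted p = 0.0268). Against the Col-0/h1 set its log2 difference was 4.75 ± 1.09 (SE; edgeR adjusted p = 0.0308). The first call was lost in 6 of 12 fits that left out 1 library (each cdca7/col library, Col-0/h1 library 1 or 2, or quadruple library 1), with edgeR adjusted p up to 0.158. The second was lost in 4 (each Col-0/h1 library or h1/cdca7 library 2), with edgeR adjusted p up to 0.126. Without both libraries high in photosynthesis genes the adjusted p from edgeR was 0.00284 and 0.017, and in fits of only the 6 libraries compared both calls were lost (edgeR adjusted p = 0.0787 and 0.0803).

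AT2G10250 shares sequence with AT2G11240, the member with the most counts. Positions 1526 to 4900 of its 4913 bases aligned to the AT2G11240 region at 82.6% identity over 3391 columns. Only uniquely mapped reads were counted, and whether reads of either were assigned to the other was not tested. A further 15 alignments elsewhere in the genome covered at least 500 bases at 90% identity or more.

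AT2G10620 (chr2:4157220-4159324, 0.55 Mb from the gap) had 27, 51 and 31 counts in the h1/cdca7 set and 0 in each of the 9 other libraries. The h1/cdca7 set was at least 30.2-fold above the quadruple set, 38.2-fold above the cdca7/col set and 45.4-fold above the Col-0/h1 set, with edgeR adjusted p of 0.0304, 0.0232 and 0.0117. These calls were lost in 5, 3 and 3 of the 12 fits that left out 1 library, with edgeR adjusted p up to 0.134, 0.119 and 0.0687. Each library of the set at 0 was among those lost, and against the quadruple set also Col-0/h1 library 2 and h1/cdca7 library 3. Without both libraries high in photosynthesis genes the adjusted p from edgeR was 0.081, 0.0394 and 0.0365 in the same order.

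AT2G10620 closes a run of 4 consecutive pseudogenes on the plus strand, AT2G10611, AT2G10614, AT2G10617 and AT2G10620. They span 10.6 kb (chr2:4148724-4159324) with no other gene annotated by RefSeq between them. All 4 had counts in each h1/cdca7 library and in no other library. AT2G10611 had 25, 18 and 7 counts, AT2G10614 had 13, 13 and 3, and AT2G10617 had 3, 10 and 11. The run summed to 68, 92 and 52 counts in the h1/cdca7 libraries and to 0 in each of the 9 others. The identifier AT2G10615, numbered between them but not among the RefSeq genes of this stretch, had counts in each quadruple library and none in the cdca7/col set. It also had counts in the h1/cdca7 and Col-0/h1 sets. The 3 nearest annotated genes on either side, among them the microRNA gene AT2G10606 (miR396a), had at most 4 counts each in all libraries together. As copies, AT2G10620 had 28 alignments elsewhere that covered over 50% of its length, at up to 88.3% identity, among them AT4G07660 at 88.2% and AT2G13390 at 86.3%, which had 0 and 2 counts in all libraries.

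AT2G11640 (chr2:4669997-4671816, 1.06 Mb from the gap) had 4, 0 and 0 counts in the quadruple set, 15, 28 and 30 in the h1/cdca7 set, and 0 in the 6 other libraries. The h1/cdca7 set did not overlap any other set. It was at least 25.6-fold above the cdca7/col set and 30.4-fold above the Col-0/h1 set, with edgeR adjusted p of 0.0372 and 0.0221. DESeq2 did not call it in either comparison (adjusted p = 0.173 and 0.121). The calls were lost in 10 and 4 of the 12 fits without 1 library, with edgeR adjusted p up to 0.16 and 0.118. In the first comparison only leaving out h1/cdca7 library 2 or quadruple library 3 kept the call, and in the second the losses came with each Col-0/h1 library and h1/cdca7 library 3. Without both libraries high in photosynthesis genes the adjusted p from edgeR was 0.407 and 0.29.

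With the run above included, 9 members had counts in all 3 h1/cdca7 libraries and in none of the 9 others (0.737% of members, against 85 of all 35651 genes, 0.238%). No member had this pattern for any of the other 3 sets. Of all 35651 genes only 6 had it for the quadruple set, 1 for the cdca7/col set and 13 for the Col-0/h1 set. With so few over all genes, the 0 members are not read as a result. The run gave 4 of the 9, and the others were the pseudogene AT4G06670, 3 protein-coding genes and AT2G11651, which has no RefSeq entry. AT4G06670, a pseudogene at -0.0712 Mb from the chromosome 4 gap, had 3, 1 and 3.

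Further pseudogenes fell below the filter and were called only without it. AT2G12040 had 0, 0 and 1 counts in the quadruple set, 17, 6 and 18 in the h1/cdca7 set and 0 in the other libraries. AT2G13300 had 5, 1 and 1 counts in the quadruple set, 82, 27 and 4 in the h1/cdca7 set, 3, 0 and 0 in the cdca7/col set and 0 in the Col-0/h1 set, so the quadruple and h1/cdca7 sets overlapped. AT4G08050 had 1, 0 and 7 counts in the quadruple set, 7, 18 and 29 in the h1/cdca7 set, 0, 1 and 0 in the cdca7/col set and 1, 6 and 1 in the Col-0/h1 set. AT2G05640 differed from them in its order. It had 0, 3 and 4 counts in the quadruple set, 2, 7 and 0 in the h1/cdca7 set, 0 in the cdca7/col set, and 17, 17 and 6 in the Col-0/h1 set. AT2G07070 had 37 counts in quadruple library 3 and at most 8 in any other library.

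**Figure D2:**
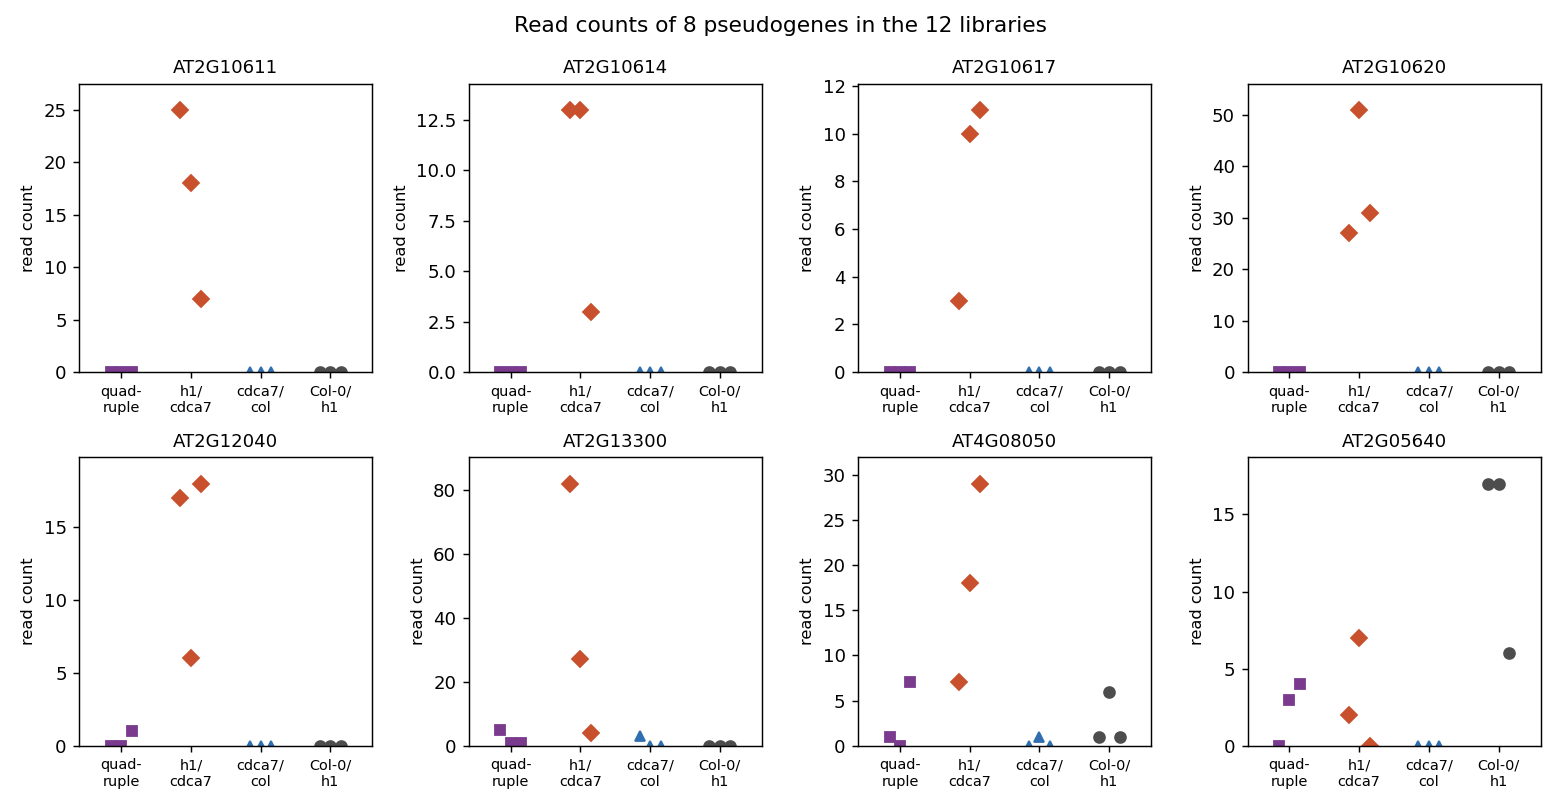
Read counts (y axis, from 0) of 8 pseudogenes in the quadruple, h1/cdca7, cdca7/col and Col-0/h1 sets (x axis); each point is a library. The 4 upper panels are the run of neighbours AT2G10611 to AT2G10620, with counts only in the h1/cdca7 libraries, and AT2G05640 at the lower right is highest in the Col-0/h1 set.

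Not every pseudogene followed this pattern. *SADHU1-1* (AT2G10410), a member of the Sadhu family of retroelements, had 40, 32 and 24 counts in the quadruple set, 39, 26 and 34 in the h1/cdca7 set, 37, 45 and 39 in the cdca7/col set, and 61, 80 and 46 in the Col-0/h1 set. It overlaps AT2G10405 on the opposite strand and was called in no comparison. AT2G09800, the second most counted pseudogene, ranged from 209 to 409 counts and was called in none. Of the 9 tested pseudogenes, the 3 called in any comparison were AT2G10250, AT2G10620 and AT2G11640, which passed the filter alone or mainly through the h1/cdca7 set. The share of all tested genes called in any comparison was not drawn up, so no rate among pseudogenes is read from this count.

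AT2G13430 gave the clearest difference among the protein-coding members (chr2:5590052-5591422, 1.98 Mb from the gap; the product is uncharacterized). It had 50, 60 and 36 counts in the quadruple set, 2, 9 and 2 in the h1/cdca7 set, 2, 0 and 1 in the cdca7/col set, and 46, 61 and 40 in the Col-0/h1 set. The quadruple and Col-0/h1 libraries were all above the h1/cdca7 and cdca7/col libraries. By table names, the sets with high counts are those named h1 and quadruple, both of them h1 mutants, and the sets with low counts are those named cdca7acdca7b and col. By title, the sets with high counts are the quadruple mutant and Col0. In CPM the gene averaged 100.7 ± 33.8 in the quadruple set, 7.68 ± 7.73 in the h1/cdca7 set, 1.48 ± 1.55 in the cdca7/col set and 66.0 ± 3.92 in the Col-0/h1 set (SD, n = 3 each). An annotated pseudogene on the opposite strand, AT2G13431, had 1 count in all libraries.

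In the cdca7/col set against the Col-0/h1 set, AT2G13430 was the only member called, and it was lower (1 of 52, where 0.381% of all tested genes were called lower and 0.0448% higher). Its log2 difference was -5.22 ± 0.71 (SE; edgeR adjusted p = 0.00288), and the call held in all 12 fits that left out 1 library (edgeR adjusted p up to 0.0355). By title this compares cdca7acdca7b with Col0, and by table names it compares col with h1. Unadjusted, 2 members were higher and 6 lower at p under 0.05 (2.82% and 4.73% of all tested genes), and DESeq2 called 0 higher and 2 lower. In the quadruple set against the cdca7/col set, where 1 member was called higher and 0 lower (0.381% and 0.0448% of all tested genes), it was again the only member called, with a log2 difference of 5.82 ± 0.71 (edgeR adjusted p = 0.000893), held in all 12 such fits. Unadjusted, 7 members were higher and 3 lower there at p under 0.05 (5.2% and 3.56% of all tested genes), and DESeq2 called 2 higher and 0 lower.

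Against the h1/cdca7 set the quadruple set was also higher for AT2G13430, by 3.72 ± 0.59 on the log2 scale (edgeR adjusted p = 0.00952). In this comparison 1 member was called higher and 1, AT2G10620, lower, where 0.157% and 0.179% of all tested genes were called. Without the members that entered the test through the h1/cdca7 set alone, 0 of 50 were called lower. The call of AT2G13430 was lost without h1/cdca7 library 3 or quadruple library 1 or 2, with edgeR adjusted p up to 0.0696, and without both libraries high in photosynthesis genes (log2 difference 2.56, edgeR adjusted p = 0.294). In the quadruple set against the Col-0/h1 set its log2 difference was 0.61 ± 0.48 (edgeR adjusted p = 0.974), and the libraries overlapped. In that comparison 0 members were called in either direction (0.0448% of all tested genes higher and 0% lower), and DESeq2 called 0. At an unadjusted p under 0.05, 1 member was higher and 1 lower (2.78% and 2.38% of all tested genes).

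In the h1/cdca7 set against the Col-0/h1 set, which by title compares h1.1h1.2 with Col0, 3 members were called higher (AT2G10250, AT2G10620 and AT2G11640) and 2 lower, where 2.82% and 1.12% of all tested genes were called. AT2G10620 and AT2G11640 had again entered the test through the h1/cdca7 set alone, and without them 1 of 50 was called higher. That 1, AT2G10250, had 4 libraries in 2 sets above the cut of the filter, so its place in the test also rested on the h1/cdca7 set. The lower members were AT2G13430, with a log2 difference of -3.11 ± 0.58 (edgeR adjusted p = 0.0127), and AT4G08990. For AT2G13430 this call was lost without any of the 3 Col-0/h1 libraries (edgeR adjusted p up to 0.0774) and without both libraries high in photosynthesis genes (log2 difference -1.98, edgeR adjusted p = 0.505).

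**Figure D3:**
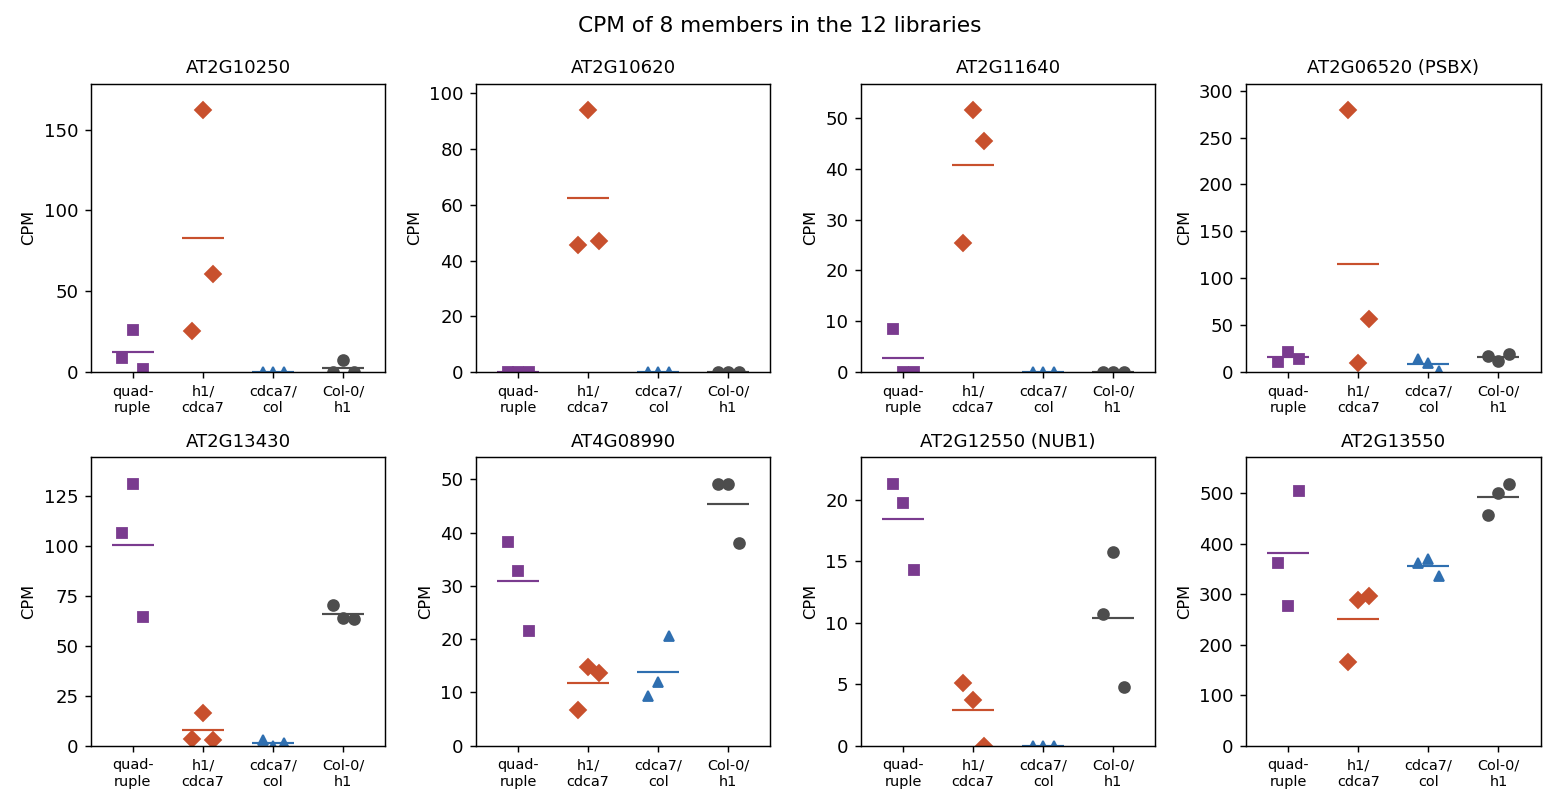
CPM (y axis, from 0) of 8 members in the quadruple, h1/cdca7, cdca7/col and Col-0/h1 sets (x axis); each point is a library and each line the mean of 3. AT2G10250, AT2G10620 and AT2G11640 are highest in the h1/cdca7 set, AT2G13430 is at 63.6 CPM or more in the 6 quadruple and Col-0/h1 libraries and at 16.6 CPM or less in the other 6, and PSBX is high in h1/cdca7 library 1.

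AT4G08990 encodes a cytosine-5 DNA methyltransferase of the family of MET1, the CG maintenance enzyme, and lies at the arm-side end of the chromosome 4 stretch (chr4:5764781-5770496, 1.81 Mb from the gap). It had 18, 15 and 12 counts in the quadruple set, 4, 8 and 9 in the h1/cdca7 set, 6, 6 and 15 in the cdca7/col set, and 32, 47 and 24 in the Col-0/h1 set. In CPM these were 30.9 ± 8.61, 11.7 ± 4.33, 13.9 ± 5.9 and 45.5 ± 6.35 in the same order (SD, n = 3 each). The quadruple and Col-0/h1 libraries lay above those of the other 2 sets. It was lower in the h1/cdca7 set than in the Col-0/h1 set, by -1.94 ± 0.48 on the log2 scale (edgeR adjusted p = 0.035). That call was lost in 5 of 12 fits without 1 library (each Col-0/h1 library, h1/cdca7 library 1 or 3), with edgeR adjusted p up to 0.17. It was also lost with the replicate number as a block (edgeR adjusted p = 0.0616) and with only the libraries compared (edgeR adjusted p = 0.0873), while DESeq2 called it (adjusted p = 0.0111). Without both libraries high in photosynthesis genes it was lost too, at a log2 difference of -1.61. Against the Col-0/h1 set the cdca7/col set differed by -1.68 ± 0.47 without passing the adjustment (edgeR adjusted p = 0.209).

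*NUB1* (AT2G12550; chr2:5114804-5118753), annotated with a ubiquitin-associated domain and named after a human protein that binds the ubiquitin-like modifier NEDD8, had 10, 9 and 8 counts in the quadruple set, 3, 2 and 0 in the h1/cdca7 set, 0 in each cdca7/col library, and 7, 15 and 3 in the Col-0/h1 set. The quadruple set was at least 11.4-fold above the cdca7/col set (edgeR adjusted p = 0.107), and DESeq2 called this difference (adjusted p = 0.01). *NUB1* had 3 libraries above the cut of the filter, in 2 sets, quadruple and Col-0/h1. Its place in the test therefore rested on the sets where it was high, and the DESeq2 call is not free of that choice. AT2G13550, an uncharacterized gene that overlaps an antisense gene, had 98, 157 and 196 counts in the h1/cdca7 set and 298, 479 and 327 in the Col-0/h1 set. Its log2 difference of -0.97 ± 0.25 (edgeR adjusted p = 0.0379) stayed under the fold cutoff, and these libraries did not overlap in CPM.

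Whether the difference between the quadruple and h1/cdca7 sets differed from that between the cdca7/col and Col-0/h1 sets was tested as an interaction, which by title is the change of the CDCA7 effect when H1 is absent. It was called for 3 members, all positive (0.964% of all tested genes were positive and 0.112% negative): AT2G13430 at 8.94 ± 0.93 (edgeR adjusted p = 0.000174), AT4G08990 at 3.06 ± 0.68 (edgeR adjusted p = 0.0436) and *NUB1* (edgeR adjusted p = 0.0436), whose fitted size depends on the prior count because the cdca7/col set is at 0. As *NUB1* passed the filter only through quadruple and Col-0/h1 libraries, the filter had already chosen it for a difference of this sign. By table names the interaction of the same genotypes is formed from other pairs of sets and was called for 0 members (0% of all tested genes in either direction). At an unadjusted p under 0.05, 0 members were positive and 2 negative (3.00% and 4.75% of all tested genes), and DESeq2 called 0.

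On chromosome 2 the members called in the h1/cdca7 set against the cdca7/col and Col-0/h1 sets lay on both sides of the gap, as the plot by distance shows. The pseudogenes AT2G10250, AT2G10620 and AT2G11640 lay within 1.06 Mb on the long-arm side, *PSBX* lay 1.02 Mb away on the short-arm side and AT2G13430 lay 1.98 Mb away on the long-arm side. On chromosome 4 AT4G08990 was the only member called in any comparison, and 15 members of that chromosome were tested, against 37 of chromosome 2.

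**Figure D4:**
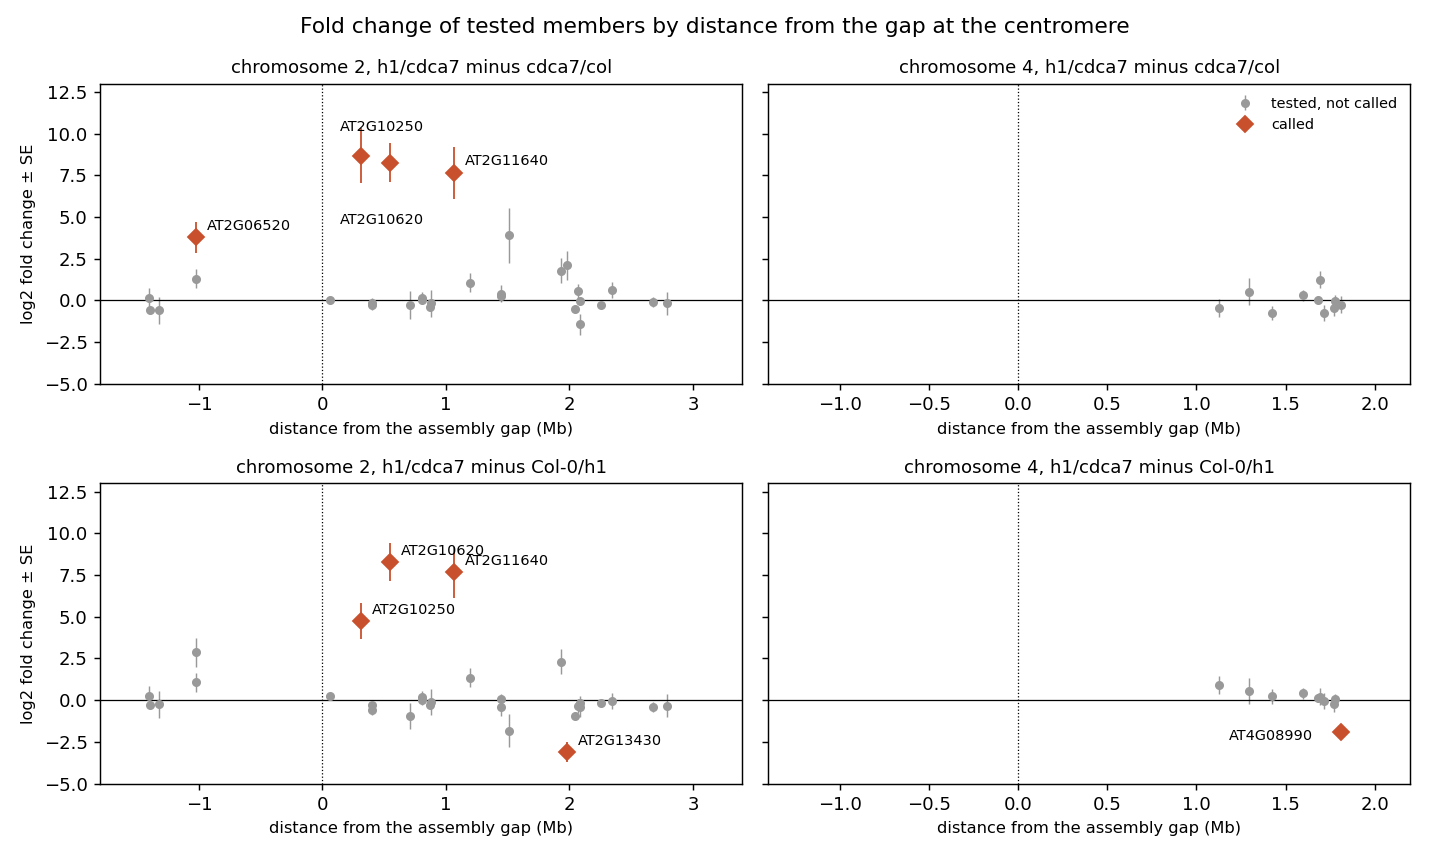
Log2 fold change with its SE (y axis) of tested members inside the 2 stretches by distance from the assembly gap in Mb (x axis), for the h1/cdca7 set minus the cdca7/col set (upper panels) and minus the Col-0/h1 set (lower panels). Called members (diamonds) include AT2G10250, AT2G10620 and AT2G11640 within 1.06 Mb of the chromosome 2 gap, and most other tested members lie near 0; fitted values against a set at 0 counts depend on the prior count.

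Several protein-coding members were highest in h1/cdca7 library 1, the library highest in photosynthesis genes. *PSBX* (AT2G06520), a small subunit of photosystem II, had 5, 10 and 8 counts in the quadruple set, 165, 5 and 37 in the h1/cdca7 set, 9, 5 and 1 in the cdca7/col set, and 11, 11 and 12 in the Col-0/h1 set. It was called higher in the h1/cdca7 set than in the cdca7/col set (log2 difference 3.78 ± 0.94, edgeR adjusted p = 0.0493), although h1/cdca7 library 2, with 0.0721% photosynthesis counts, overlapped the cdca7/col libraries. Without both libraries high in photosynthesis genes the log2 difference was 0.16. The call was kept in 2 of 12 fits that left out 1 library, those without h1/cdca7 library 2 or 3, and edgeR adjusted p reached 0.389. The whole list of 21 photosynthesis genes, none of them a member, had 19 tested genes, of which 14 were called higher against the cdca7/col set and 16 against the Col-0/h1 set.

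*AGT*, *PGR5*, *GRP-3* and *XTH4* were also highest in h1/cdca7 library 1, while *AGP9* was not. *AGT* (AT2G13360), the photorespiratory alanine:glyoxylate aminotransferase, had 107, 12 and 38 counts in the h1/cdca7 set and 5, 14 and 19 in the Col-0/h1 set (log2 difference 2.32 ± 0.76, edgeR adjusted p = 0.103). *PGR5* (AT2G05620), needed for cyclic electron flow around photosystem I, had 52, 0 and 6 counts in the h1/cdca7 set and at most 6 in any other library. *GRP-3* (AT2G05520), a glycine-rich wall protein, had 132, 1 and 24, and *XTH4* (AT2G06850), an enzyme that remodels xyloglucan in cell walls, had 46, 0 and 5. *AGP9* (AT2G14890), an arabinogalactan protein of the same list as *XTH4*, did not have these libraries on top, with 10, 8 and 11 counts in the h1/cdca7 set and 23, 17 and 5 in the Col-0/h1 set. Of 72 protein-coding members with 20 counts or more, 32 were highest in h1/cdca7 library 1 and 10 had h1/cdca7 libraries 1 and 3 as their highest pair. Of 26 such pseudogenes, 5 were highest in h1/cdca7 library 1 and 3 had that pair on top. Over all genes these shares were not drawn up. Of all genes, 48.5% had a count in h1/cdca7 library 1 and 38.4% in library 3, against 27.5 to 35.3% in the 10 other libraries. The part of these libraries in the counts of other members was not tested beyond the fits without them.

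**Figure D5:**
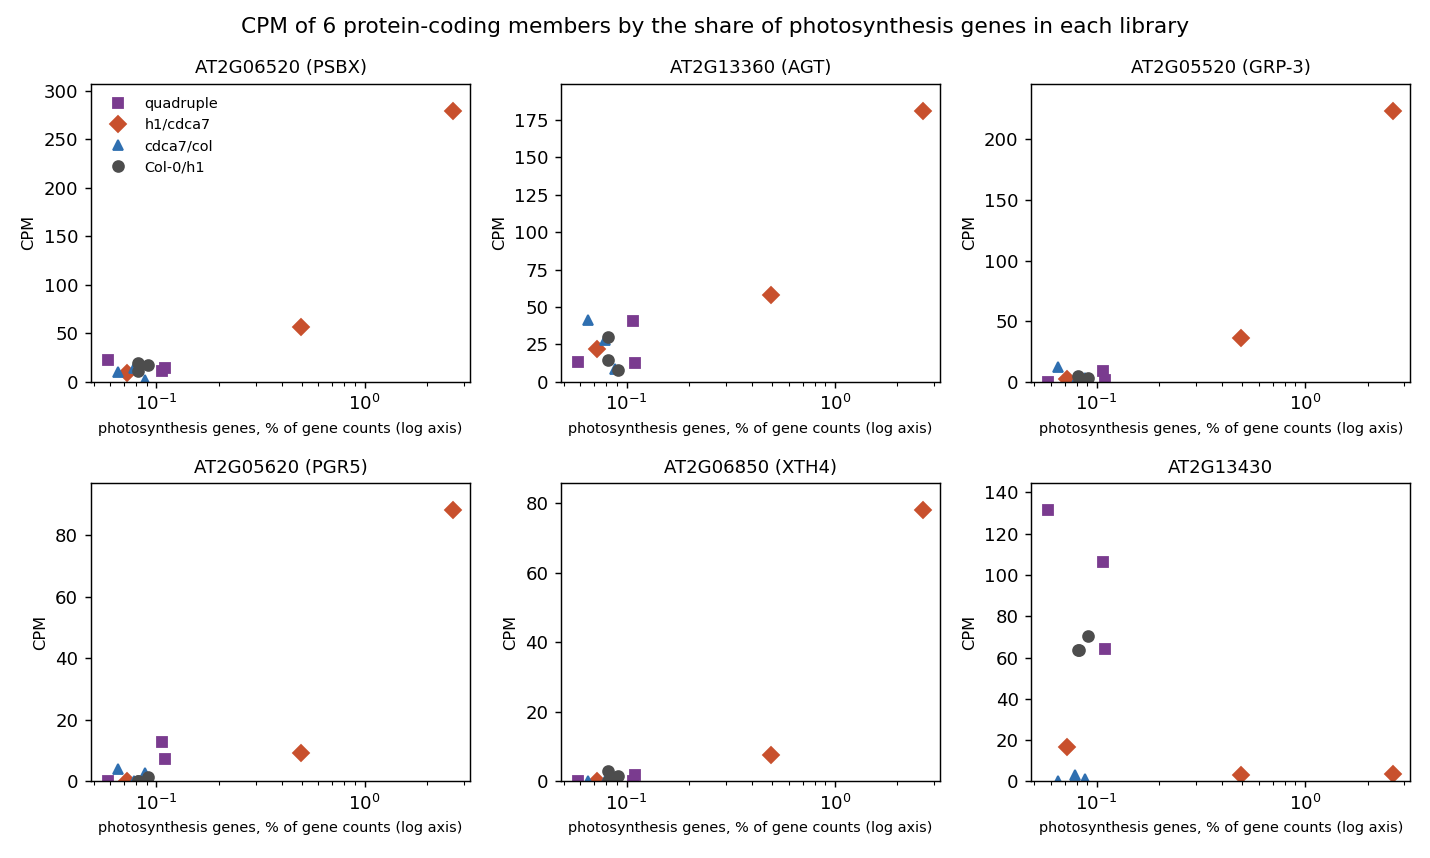
CPM (y axis, from 0) of 6 protein-coding members against the share of gene counts on 21 photosynthesis genes (x axis, percent, log axis); each point is a library, with the set given by shape. PSBX, AGT, GRP-3, PGR5 and XTH4 are highest in h1/cdca7 library 1, at 2.65%, and second in h1/cdca7 library 3, at 0.495%, for all but PGR5, while AT2G13430 is high in libraries at 0.11% or less.

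The members of known role were mostly too low to test. Of 12 immunity genes, 2 were tested and 0 called. They included the receptor kinase gene AT4G08850 (*MIK2*), which senses small peptides, with 138 to 390 counts per library, and *RIPK* (AT2G05940), a kinase of immune signalling, with 2 to 40. *PR1* (AT2G14610), the classical marker of salicylic acid defence, had 0 counts in every library. Of 8 genes acting on chromatin or nucleic acids, AT4G08990 and *RPA1A* (AT2G06510), a subunit of the single-strand DNA-binding complex RPA, were tested and AT4G08990 alone was called, in 1 comparison. Of 15 genes of metabolism and transport, *AGT* and *ARGAH2* (AT4G08870), an arginase, were tested and 0 were called. Of 13 genes of development, cell wall and light sensing, only *AGP9* was tested and 0 were called. The blue-light receptor gene *CRY1* (AT4G08920) had 56 counts in all 12 libraries. Together 26 of these 48 genes had fewer than 20 counts in total, so a difference in them was not detectable at this depth.

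The 10 members with the highest mean CPM ran from 152 to 15506 CPM, and 0 of them were called in any of the 6 comparisons. They were AT2G11240, AT2G09250, AT2G09800, AT2G05810 (an ARM repeat protein), AT2G13965, AT4G08850, AT2G13550, AT2G13660, AT4G08690 (a Sec14-like phosphatidylinositol transfer protein) and AT2G10405. Of these 10, 9 overlap an annotated gene on the opposite strand. Over all members 11.9% have such a partner, and among the 52 tested members 29 do (55.8%). With the strand of the counting unknown, reads of a gene and its antisense partner cannot be told apart with certainty. AT2G05810 had 163 to 439 counts and its partner AT2G05812 had 242 to 474.

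Among the arm members 12 were tested and 0 were called. AT2G09250, an lncRNA that overlaps the cytokinin response regulator gene AT2G41310 on the opposite strand, had 45, 67 and 3803 counts in the quadruple set, 45, 48 and 425 in the h1/cdca7 set, 76, 53 and 115 in the cdca7/col set, and 43, 115 and 71 in the Col-0/h1 set. Quadruple library 3 alone carried the difference between the quadruple and Col-0/h1 sets (log2 difference 4.55 ± 1.27, edgeR adjusted p = 0.606), and the sets overlapped. AT2G41310 itself had 25 counts in all libraries. This library also sets the sum of the arm members in the quadruple set, at 407, 497 and 7363 CPM in the 3 libraries.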

How the data were processed

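RNA of 12 single-seedling libraries was measured. Per the labels and the study's methods, the authors trimmed reads (Trim Galore 0.6.7), aligned them to TAIR10 (STAR 2.7.11a), kept uniquely mapped reads and deposited raw HTSeq 0.13.5 read counts per gene; strand setting and annotation release are not given in the sources used here. HTSeq's 5 summary lines were left out. The TE tables were not used here. Members and lists were chosen with earlier results of these data known.

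All 12 libraries entered 1 fit in edgeR 4.0.16 (R 4.3.3): TMM, filterByExpr (4461 of 35651 genes kept), quasi-likelihood F test, Benjamini-Hochberg adjustment over all tested genes. Standard errors come from the log2 fold change and F. CPM used TMM-scaled library sizes. Folds against sets at 0 used 3 counts over the set. Sequences came from TAIR10.1, whose RefSeq annotation holds 1210 members; copies were found with blastn 2.17.0. Named members were those called (up to 12 per direction in the first 2 comparisons, up to 4 in the other 4, by size), the 10 with the highest mean CPM and the role lists; others were chosen after their values were seen. The fit was first tested on simulated data. Alternatives were DESeq2 1.42.0, its size factors, no filter, only the libraries compared, a replicate block and each library left out. Tables were summarised with pandas 2.3.3 and drawn with matplotlib 3.10.9.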

Additional observations from a re-analysis of the deposited data

Results flagged for a closer look

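For 3 members the difference between the quadruple and h1/cdca7 sets differed from that between the cdca7/col and Col-0/h1 sets, by the interaction term of the edgeR fit read by title. AT2G13430 had an interaction of 8.94 on the log2 scale, with 50, 60 and 36 counts in the quadruple set and 2, 9 and 2 in the h1/cdca7 set, and 2, 0 and 1 in the cdca7/col set and 46, 61 and 40 in the Col-0/h1 set; the call held in all 12 fits that left out 1 library (edgeR adjusted p up to 0.00152). AT4G08990 had an interaction of 3.06 and kept its call in 1 of the 12 fits, the one without h1/cdca7 library 2 (edgeR adjusted p up to 0.167). AT2G12550 (*NUB1*) had a fitted interaction of 8.34, with 0 counts in every cdca7/col library, and kept its call in 1 of the 12 fits, again without h1/cdca7 library 2 (edgeR adjusted p up to 0.208). It passed the filter only through quadruple and Col-0/h1 libraries, so this call is not free of the choice made by the filter. Without both libraries high in photosynthesis genes, the edgeR adjusted p was 0.000204 for AT2G13430, 0.31 for AT4G08990 and 0.2 for AT2G12550. By table names the same contrast of sets adds the difference of the quadruple and h1/cdca7 sets to that of the Col-0/h1 and cdca7/col sets, and the interaction formed by table names called 0 members. The sets of 3 libraries are too small for a test of single outlying libraries.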

How the results depend on the processing

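Depth limits these results: 1170 of 1222 members were too low to test, and most called members rest on fewer than 100 counts per library. The disagreement of titles and table names and the unknown strand of the counts bear on every comparison. Over 302 values of called members under the alternatives, 0 changed direction, 202 stayed called and 100 did not, with causes not tested beyond fewer libraries or other filters by construction. Without the filter on low counts, members called were 11 higher (h1/cdca7 against cdca7/col), 14 higher (h1/cdca7 against Col-0/h1), 3 higher (quadruple against Col-0/h1), 5 higher (quadruple against cdca7/col), 2 higher and 7 lower (quadruple against h1/cdca7), 2 lower (cdca7/col against Col-0/h1), and 7 and 3 with an interaction by title and by table names. Shares of all genes called were not drawn up for DESeq2 or the other alternatives, so their counts of members show only how the calls move with the setting. DESeq2 called 2 lower (cdca7/col against Col-0/h1), 2 higher (quadruple against cdca7/col) and 2 lower (quadruple against h1/cdca7). With only the libraries compared, 2 were higher (h1/cdca7 against cdca7/col), 0 lower (h1/cdca7 against Col-0/h1) and 0 higher (quadruple against h1/cdca7). Without both libraries high in photosynthesis genes, chosen after seeing the data, these became 2 higher, 0 lower and 0 higher, with 0 lower (quadruple against h1/cdca7), 2 higher (quadruple against cdca7/col) and 1 with an interaction by title.

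Same-numbered libraries of different sets had deviations from their set means that correlated at -0.134 to 0.156, 2 of 18 over 0.1, and in 15 of 36 comparisons a library correlated best with its own number, so the numbers were not taken as pairs. With the replicate number as a block, members called were 2 higher (h1/cdca7 against cdca7/col), 1 lower (h1/cdca7 against Col-0/h1), 0 lower (quadruple against h1/cdca7) and 1 with an interaction by title.

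When 1 library was left out, the members called ranged from 0 to 7 higher and 0 to 1 lower (h1/cdca7 against cdca7/col, lowest without any cdca7/col library and highest without h1/cdca7 library 2), from 0 to 8 higher and 0 to 3 lower (h1/cdca7 against Col-0/h1), from 0 to 1 higher and 0 to 4 lower (quadruple against h1/cdca7), and from 1 to 4 with an interaction by title. They stayed at 0 higher and 1 lower (cdca7/col against Col-0/h1), 1 higher and 0 lower (quadruple against cdca7/col), 0 in either direction (quadruple against Col-0/h1) and 0 with an interaction by table names. DESeq2's size factors in edgeR moved none of these counts by over 1.5 times.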
